A study of Mus musculus with 12 samples.

Results

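Stat3, the kinases Jak1 and Jak2, the inhibitors Socs1, Socs2, Socs3, Cish and Pias3, and the target genes Pim1 and Bcl3 were followed across 4 treatment groups of mouse aorta. The 10 genes were taken by name from the array's gene column among probes that are not controls. They are 10 of the 34797 gene names on the array and hold 15 of its 55681 probes. Of the 15 probes, 14 passed the filter on dim signal, and each of the 10 genes kept at least 1 tested probe. The probe left out was a second probe of Pias3, A_51_P152167, which was well above background on 1 array.

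The Jak kinases sit on cytokine receptors and, when a ligand such as interleukin 6 binds, add phosphate to the receptor and to Stat transcription factors, which then move to the nucleus. Stat3 is the Stat factor of the interleukin 6 family, and its targets include its own inhibitors, so that the pathway shuts itself down. Stat3 works through phosphorylation of its protein, which an RNA array does not measure.

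RNA was measured in the aorta of 12 male C57BL/6J mice on day 3, with 1 array per mouse and 3 mice per group. Mice of the DMSO group received dimethyl sulfoxide, the vehicle, and mice of the rapamycin group received rapamycin, an inhibitor of the growth kinase mTOR, at 2 mg/kg/day. BA+DMSO mice received the vehicle together with the BAPN + AngII challenge, in which beta-aminopropionitrile (BAPN, 150 mg/kg/day) blocks the crosslinking of collagen and elastin and angiotensin II (AngII, 1 µg/kg/min) is a hormone that acts on the vessel wall. BA+rapamycin mice received this challenge and rapamycin at the same doses. The model thus combines 2 agents, whose separate effects cannot be told apart here. The sample titles of the DMSO mice carry the prefix "Pre", by which the study means unchallenged animals at the start, although their treatment label is DMSO.

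Every level below is a log2 intensity relative to the 75th percentile of its array, so that 0 is the level of that percentile. Differences are on the same log2 scale. A probe was called where the limma model across all 27801 tested probes gave a Benjamini-Hochberg adjusted p under 0.05, and "rose" and "fell" are used of called probes only. Levels of different probes are not compared, because each probe binds its target with its own strength.

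The arrays differed in ways that moved with the challenge. The 75th percentile of intensity was 247 to 314 in DMSO and 287 to 376 in rapamycin. It was 85.4 to 282 on the BA+DMSO arrays and 81.0 to 121 on the BA+rapamycin arrays. All 3 DMSO arrays and rapamycin replicate 1 lay on 1 slide, and the other 8 arrays, all 6 challenged ones among them, on the second. Slide and challenge can therefore not be told apart in vehicle-treated mice. Across the tested probes, replicate arrays correlated at 0.987 to 0.993 in both unchallenged groups, at 0.974 to 0.982 in BA+rapamycin and least in BA+DMSO (0.912 to 0.961). All 8 smooth muscle markers checked were well above background on every array.

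The BAPN + AngII challenge moved 4 of the 10 genes in mice given vehicle. Bcl3, Pim1 and Stat3 rose and Jak2 fell, so that 4 of 14 probes were called against 20.5% of all tested probes, or 5697 of 27801. In mice given rapamycin, the challenge moved 6 genes on 7 probes. Stat3, Socs3, Pim1 and Bcl3 rose, and Jak2 and 2 of the 4 Socs2 probes fell. Of all tested probes, 41.7% were called in that comparison, and neither the 4 nor the 7 of 14 member probes stood far from the share of all probes. Rapamycin was compared with vehicle in challenged mice, where 0.281% of all probes were called, and in unchallenged mice, where 0.0036% were called, and no member probe was called in either. At an unadjusted p under 0.05, 5585 probes passed under challenge and 1187 without it. The interaction, which asks whether rapamycin acted differently with the challenge than without it, was called for 0% of all probes and for no member, and 1702 probes had an unadjusted p under 0.05.

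The same 3 BA+DMSO arrays serve in the comparison with DMSO and in that with BA+rapamycin, and each other group is shared by 2 comparisons likewise, so the values of the contrasts are not independent.

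**Figure D1:**
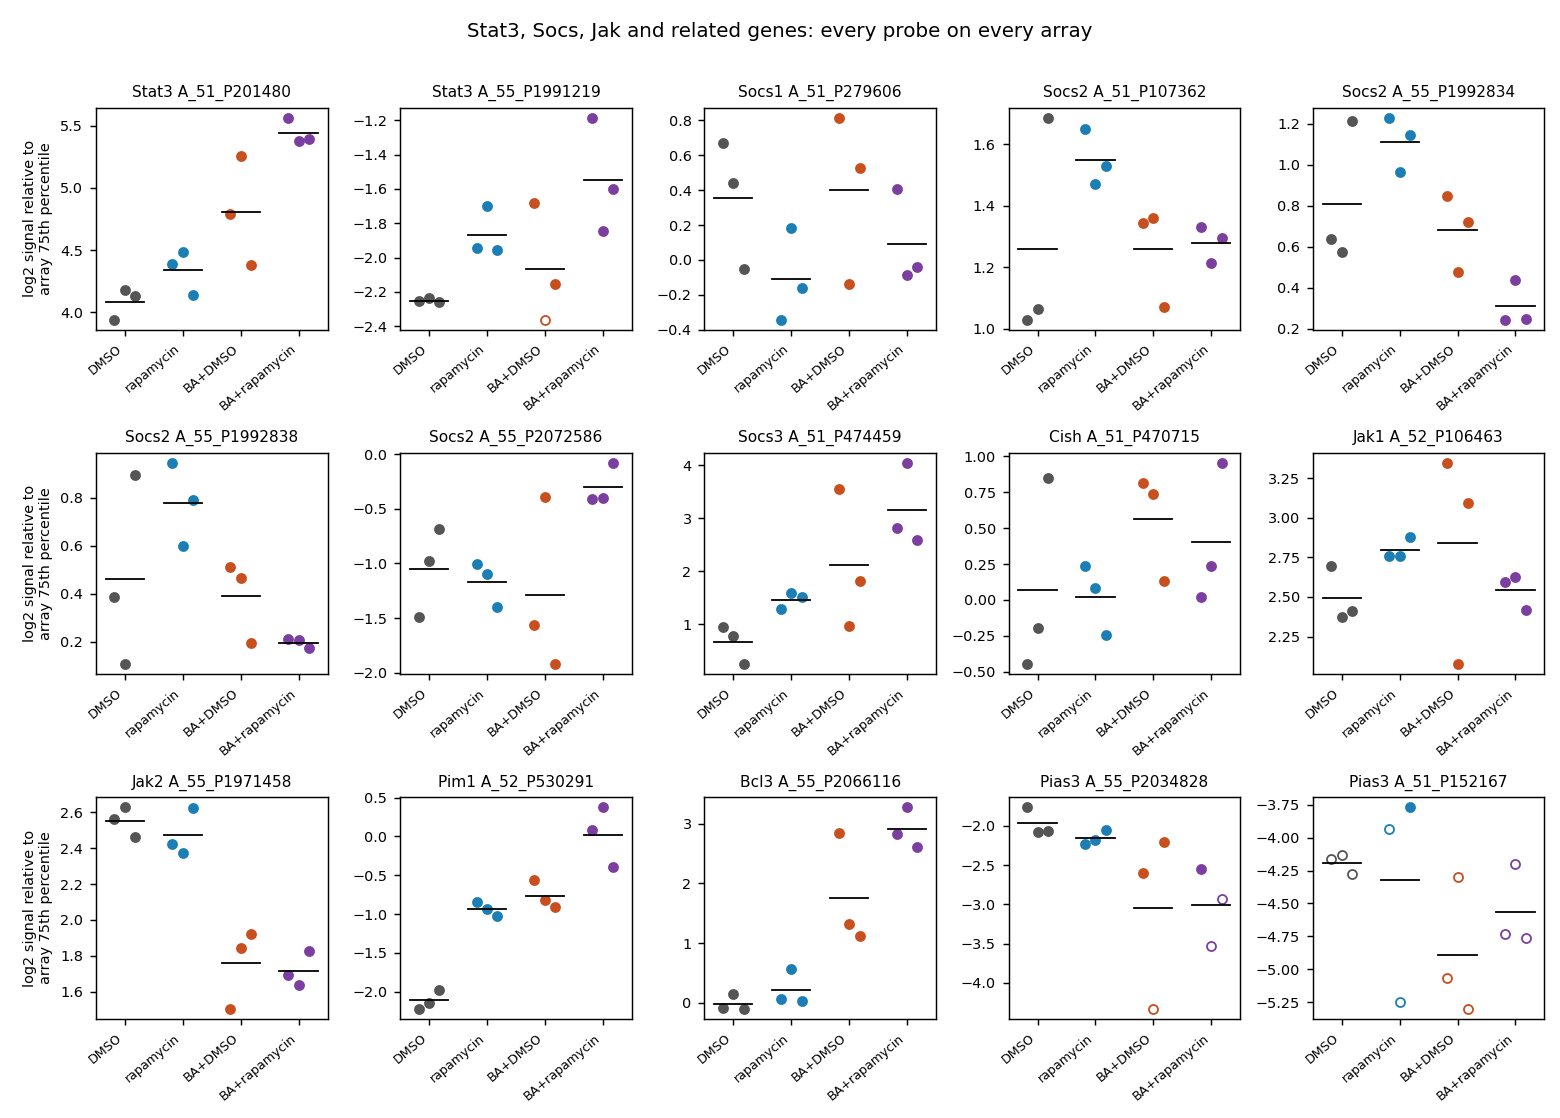
Each panel shows 1 member probe, with the log2 intensity relative to the array's 75th percentile on the vertical axis and the 4 groups on the horizontal axis. Points are single arrays, open where the probe was not well above background, and lines are group means. Bcl3 and Pim1 lay higher on all 3 BA+DMSO arrays than on any DMSO array and Jak2 lay lower, while Jak1 and Socs3 were spread widely within BA+DMSO.

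Jak2 and Jak1 encode the kinases at the top of the pathway. Jak2, read by A_55_P1971458 at chr19:29387487-29387546 (mm9, plus strand), stood at 2.56, 2.63 and 2.46 in DMSO, at 2.42, 2.37 and 2.62 in rapamycin, at 1.51, 1.85 and 1.92 in BA+DMSO and at 1.69, 1.64 and 1.83 in BA+rapamycin. All 6 challenged arrays were lower than all 6 unchallenged ones, and the 2 challenged groups overlapped. Jak2 fell by 0.79 (SE 0.16, 1.73-fold lower, limma adjusted p = 0.00794) with the challenge in vehicle-treated mice and by 0.76 (1.69-fold lower, limma adjusted p = 0.00557) in rapamycin-treated mice. Within the second slide the latter difference was -0.78 (limma adjusted p = 0.0674), and with array brightness as a covariate it was -0.58 (adjusted p = 0.172). The difference between BA+rapamycin and BA+DMSO was -0.040, with a 95% interval of -0.40 to 0.32.

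Jak1, the partner of Jak2 on receptors of the interleukin 6 family, was not called in any comparison. Its probe at chr4:100825094-100825153 (mm9, minus strand) gave 2.70, 2.37 and 2.41 in DMSO, 2.76, 2.76 and 2.88 in rapamycin, 3.35, 2.08 and 3.10 in BA+DMSO and 2.60, 2.63 and 2.42 in BA+rapamycin. BA+DMSO held both the highest and the lowest Jak1 values of the 12 arrays. The difference for the challenge was 0.35 (limma adjusted p = 0.402). BA+DMSO replicate 2, the low array, decided this: without it the difference was 0.73 (limma adjusted p = 0.00704), that between BA+rapamycin and BA+DMSO was -0.68 (limma adjusted p = 0.00876) and the interaction was -0.98 (limma adjusted p = 0.0333).

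Stat3 was read by 2 probes, both on the minus strand. A_51_P201480 lies at chr11:100749598-100749657 and A_55_P1991219 at chr11:100759946-100760005 (mm9), with 10288 bases between them. The second reads part of the coding sequence, and the probes gave different results.

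On A_51_P201480, Stat3 stood at 3.94, 4.18 and 4.13 in DMSO, at 4.39, 4.49 and 4.14 in rapamycin, at 4.79, 5.25 and 4.38 in BA+DMSO and at 5.56, 5.38 and 5.40 in BA+rapamycin. The order of the group means was BA+rapamycin, BA+DMSO, rapamycin and DMSO, and of the neighbours in that order only the first pair did not overlap. Stat3 rose by 0.72 with the challenge in vehicle-treated mice (SE 0.22, 1.65-fold, limma adjusted p = 0.0370), from 4.08 ± 0.13 to 4.81 ± 0.44 (mean ± SD, n = 3 each). It rose by 1.11 in rapamycin-treated mice (2.15-fold, limma adjusted p = 0.00358), from 4.34 ± 0.18 to 5.44 ± 0.10. The higher level in BA+rapamycin than in BA+DMSO, a difference of 0.64 with a 95% interval from 0.16 to 1.11, did not pass (limma adjusted p = 0.172).

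The call of Stat3 in vehicle-treated mice was lost without any one of DMSO replicates 1, 2 and 3 and BA+DMSO replicates 1 and 2, where the difference ranged from 0.50 to 0.77 and the adjusted p from 0.0519 to 0.118. Without BA+DMSO replicate 2 the difference between BA+rapamycin and BA+DMSO was 0.86 and passed (limma adjusted p = 0.00593). The call in vehicle-treated mice was also lost under quantile normalization (0.75, adjusted p = 0.0607), with the deposited value table (0.74, adjusted p = 0.0617), with no filter on dim probes (adjusted p = 0.0989), in a model of the 2 groups alone (adjusted p = 0.165) and with slide as a fixed block (0.80, adjusted p = 0.521). It was lost in 12 of 20 alternatives in all, the mean of the Stat3 probes included. With the brightness of each array as a covariate, the differences for the challenge were 0.34 (adjusted p = 0.207) in vehicle-treated and 0.42 (adjusted p = 0.330) in rapamycin-treated mice. Within the second slide, which holds 2 rapamycin and 3 BA+rapamycin arrays, the difference was 1.13 (limma adjusted p = 0.0479).

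The coding probe A_55_P1991219 was not called in any comparison. It gave -2.25, -2.24 and -2.26 in DMSO, -1.95, -1.70 and -1.95 in rapamycin, -1.68, -2.36 and -2.15 in BA+DMSO, where replicate 2 was not well above background, and -1.19, -1.85 and -1.60 in BA+rapamycin. DMSO lay below rapamycin on every array, and the other groups overlapped their neighbours. Its difference for the challenge was 0.19, with a 95% interval of -0.29 to 0.66, in vehicle-treated mice and 0.32 (limma adjusted p = 0.244) in rapamycin-treated mice. With the 2 probes averaged, Stat3 differed by 0.46 (adjusted p = 0.0936) in vehicle-treated mice and rose by 0.71 (adjusted p = 0.0104) in rapamycin-treated mice.

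Socs3 is the inhibitor that Stat3 induces and that blocks the interleukin 6 receptor and its Jak kinases. Promoter sequences from RefSeq (GRCm38.p6, 250 bases before to 50 after the start) were searched for TTCNNNGAA, the palindrome that Stat factors bind, which reads the same on both strands. Of 32851 such windows, 8.3% held it. The table held 11 windows for 9 of the 10 genes, and the windows of Socs3 and Cish held the motif. The 250 bases before the start of Socs3, on the minus strand at chr11:117969367-117969616 of GRCm38.p6, are shown because Socs3 rose here, with the motif in capitals, 154 bases before the start.
Socs3: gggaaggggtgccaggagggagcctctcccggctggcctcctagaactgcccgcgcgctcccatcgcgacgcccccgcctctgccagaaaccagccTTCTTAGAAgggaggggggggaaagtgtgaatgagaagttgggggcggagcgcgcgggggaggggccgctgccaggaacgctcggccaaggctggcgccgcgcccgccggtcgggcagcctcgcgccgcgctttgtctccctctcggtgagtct

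The array probe of Socs3 lies at chr11:117827480-117827539 (mm9, minus strand). Socs3 stood at 0.95, 0.77 and 0.25 in DMSO, at 1.28, 1.59 and 1.51 in rapamycin, at 3.54, 0.96 and 1.82 in BA+DMSO and at 2.80, 4.04 and 2.59 in BA+rapamycin. Every BA+rapamycin array lay above every rapamycin array, and every BA+DMSO array above every DMSO array, the nearest by 0.96 against 0.95. Within BA+DMSO the spread (SD 1.31) was wider than the whole range of the DMSO group.

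Socs3 rose by 1.69 with the challenge in rapamycin-treated mice (SE 0.56, 3.22-fold, limma adjusted p = 0.0343). Its difference in vehicle-treated mice was 1.45, with a 95% interval of 0.21 to 2.70, and was not called (adjusted p = 0.0915). The first call was lost without any one of rapamycin replicates 1, 2 and 3 and BA+rapamycin replicate 2, where the difference ranged from 1.24 to 1.75 and the adjusted p from 0.0682 to 0.127. Within the second slide the difference in rapamycin-treated mice was 1.60 (limma adjusted p = 0.146). In vehicle-treated mice the difference was 0.74 without BA+DMSO replicate 1 (limma adjusted p = 0.285), and Socs3 passed without BA+DMSO replicate 2 (2.03, limma adjusted p = 0.0199) and with slide as a random block (1.5, limma adjusted p = 0.0191).

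Cish, a relative of the Socs genes best known as a target of Stat5, was not called in any comparison. Its window held the motif on 2 occasions, from the first base of the transcript and from base 12, in these 20 bases on the plus strand at chr9:107296659-107296678 of GRCm38.p6, with both matches in capitals. Windows with at least 2 matches made up 0.457% of all windows.
Cish: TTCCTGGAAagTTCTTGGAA

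Levels of Cish, read at chr9:107204196-107204255 (mm9, plus strand), were -0.45, -0.19 and 0.84 in DMSO, 0.23, 0.08 and -0.25 in rapamycin, 0.82, 0.74 and 0.14 in BA+DMSO and 0.02, 0.23 and 0.95 in BA+rapamycin. All 4 groups overlapped. The difference for the challenge was 0.49 (limma adjusted p = 0.347) in vehicle-treated mice and 0.38 (limma adjusted p = 0.399) in rapamycin-treated mice.

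Socs1, which blocks Jak kinases directly and restrains interferon signals, also passed in no comparison. Its probe at chr16:10783951-10784010 (mm9, minus strand) gave 0.67, 0.44 and -0.05 in DMSO, -0.34, 0.18 and -0.16 in rapamycin, 0.81, -0.14 and 0.53 in BA+DMSO and 0.41, -0.08 and -0.04 in BA+rapamycin. Again all 4 groups overlapped. The 95% interval of the challenge difference in vehicle-treated mice, -0.57 to 0.67 around 0.047, leaves room for changes of either sign.

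Socs2, the inhibitor best known for restraining growth hormone signalling through Stat5, had 4 probes, all on the minus strand of chromosome 10 (mm9). Of these, 3 lie close together, A_51_P107362 at chr10:94875066-94875125, A_55_P1992834 at chr10:94875187-94875246 and A_55_P1992838 at chr10:94875468-94875527. The fourth, A_55_P2072586, which the array files give to the transcript ENSMUST00000057750, lies 27001 bases away from A_51_P107362 at chr10:94848005-94848064. The sequence of A_55_P1992838 is shown because it is 1 of the 2 called probes and reads coding sequence.
A_55_P1992838: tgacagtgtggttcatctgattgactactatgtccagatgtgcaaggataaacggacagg

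On A_55_P1992834, Socs2 stood at 0.64, 0.57 and 1.21 in DMSO, at 1.23, 0.96 and 1.14 in rapamycin, at 0.85, 0.48 and 0.72 in BA+DMSO and at 0.24, 0.44 and 0.25 in BA+rapamycin. BA+rapamycin was the lowest group and overlapped none of the others. Against rapamycin it fell by 0.80 (SE 0.20, 1.74-fold lower, limma adjusted p = 0.0101). On A_55_P1992838 the rapamycin arrays stood at 0.95, 0.60 and 0.79 and the BA+rapamycin arrays at 0.21, 0.21 and 0.17, which fell by 0.58 (SE 0.21, limma adjusted p = 0.0429).

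The call on A_55_P1992838 was lost without any one of the 6 arrays, rapamycin replicates 1 to 3 and BA+rapamycin replicates 1 to 3, where the difference ranged from -0.67 to -0.50 and the adjusted p from 0.0569 to 0.134. A_51_P107362 lay lower on all BA+rapamycin than on all rapamycin arrays but was not called (-0.27, limma adjusted p = 0.273). Within the second slide neither call held, with -0.74 on A_55_P1992834 (limma adjusted p = 0.0700) and -0.50 on A_55_P1992838 (limma adjusted p = 0.151). The distant A_55_P2072586 went the other way and was not called, with -1.0, -1.09 and -1.40 in rapamycin and -0.41, -0.40 and -0.08 in BA+rapamycin (0.87, limma adjusted p = 0.0669). Its difference turned to -0.41 (limma adjusted p = 0.569) with array brightness as a covariate. In vehicle-treated mice the challenge difference of this probe was -0.24 (limma adjusted p = 0.661), and -0.96 (limma adjusted p = 0.0473) with that covariate. With the 4 probes averaged, the challenge difference of Socs2 was -0.20 (adjusted p = 0.442) in rapamycin-treated mice. In vehicle-treated mice that average differed by -0.11 (adjusted p = 0.728).

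The distant Socs2 probe also varied most within BA+DMSO, at -1.57, -0.39 and -1.92. Without replicate 2 of that group, its difference between BA+rapamycin and BA+DMSO was 1.45 (limma adjusted p = 0.00391) and its interaction 1.56 (limma adjusted p = 0.0336), against 1.00 (adjusted p = 0.185) and 1.11 (adjusted p = 0.737) with all arrays.

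Pias3, which binds Stat3 and keeps it from DNA, was dim. Its tested probe A_55_P2034828, at chr3:96508791-96508850 (mm9, plus strand), gave -1.76, -2.07 and -2.06 in DMSO, -2.23, -2.18 and -2.05 in rapamycin, -2.61, -4.33 and -2.20 in BA+DMSO and -2.55, -3.53 and -2.94 in BA+rapamycin. BA+DMSO lay below DMSO and BA+rapamycin below rapamycin on every array, and only 2 of 3 BA+DMSO and 1 of 3 BA+rapamycin arrays were well above background. Pias3 passed the filter only through the unchallenged groups, so its differences for the challenge are given as a description with no test. They were -1.08 in vehicle-treated and -0.85 in rapamycin-treated mice. The first was -0.44 without BA+DMSO replicate 2, -1.5 without BA+DMSO replicate 3 and -1.06 with slide as a random block. The second changed sign under normexp background correction (0.40) and with array brightness as a covariate (1.05). With that covariate the first was -0.016. No direction is therefore given for Pias3.

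Pim1 encodes a serine/threonine kinase for survival and growth and is a textbook target of Stat3 and Stat5. Its probe A_52_P530291 lies at chr17:29630740-29630799 (mm9, plus strand) and is shown because it separated DMSO and BA+rapamycin from every other group, again on coding sequence.
A_52_P530291: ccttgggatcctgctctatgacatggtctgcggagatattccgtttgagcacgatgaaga

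Pim1 stood at -2.22, -2.14 and -1.97 in DMSO, at -0.85, -0.93 and -1.02 in rapamycin, at -0.56, -0.82 and -0.90 in BA+DMSO and at 0.09, 0.37 and -0.40 in BA+rapamycin. DMSO was the lowest group and BA+rapamycin the highest, with no overlap with the others, and rapamycin and BA+DMSO overlapped in between. Pim1 rose by 1.35 with the challenge in vehicle-treated mice (SE 0.20, 2.54-fold, limma adjusted p = 0.00183) and by 0.95 in rapamycin-treated mice (1.94-fold, limma adjusted p = 0.00533). Within the second slide the latter difference was 1.00 (limma adjusted p = 0.0557).

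Rapamycin without the challenge came with a Pim1 level higher by 1.18 (95% interval 0.73 to 1.62, 2.26-fold), with an unadjusted p of 0.000122 that did not pass over all probes (limma adjusted p = 0.358). Under challenge the difference was 0.78 (95% interval 0.34 to 1.23, limma adjusted p = 0.106), and it passed without BA+DMSO replicate 2 (0.75, adjusted p = 0.0225). The interaction was -0.39 (adjusted p = 0.737).

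Bcl3, an atypical member of the IκB family that works in the nucleus with NF-κB subunits and is also induced by Stat3, showed the largest rises among the members. Its probe A_55_P2066116 at chr7:20393826-20393885 (mm9, minus strand) gave -0.09, 0.15 and -0.10 in DMSO, 0.07, 0.56 and 0.02 in rapamycin, 2.84, 1.33 and 1.12 in BA+DMSO and 2.83, 3.27 and 2.62 in BA+rapamycin. All 6 challenged arrays lay above all 6 unchallenged ones, and BA+DMSO replicate 1 reached the BA+rapamycin range. Bcl3 rose by 1.78 in vehicle-treated mice (SE 0.39, 3.42-fold, limma adjusted p = 0.0107) and by 2.69 in rapamycin-treated mice (6.45-fold, limma adjusted p = 0.000914). Within the second slide the latter was 2.61 (adjusted p = 0.0247).

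The difference of Bcl3 between BA+rapamycin and BA+DMSO was 1.14 (adjusted p = 0.172), and it passed without BA+DMSO replicate 1 (1.68, limma adjusted p = 0.0257). With brightness as a covariate, Bcl3 differed for the challenge by 1.55 (adjusted p = 0.0597) in vehicle-treated mice and by 2.28 (adjusted p = 0.0783) in rapamycin-treated mice.

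**Figure D2:**
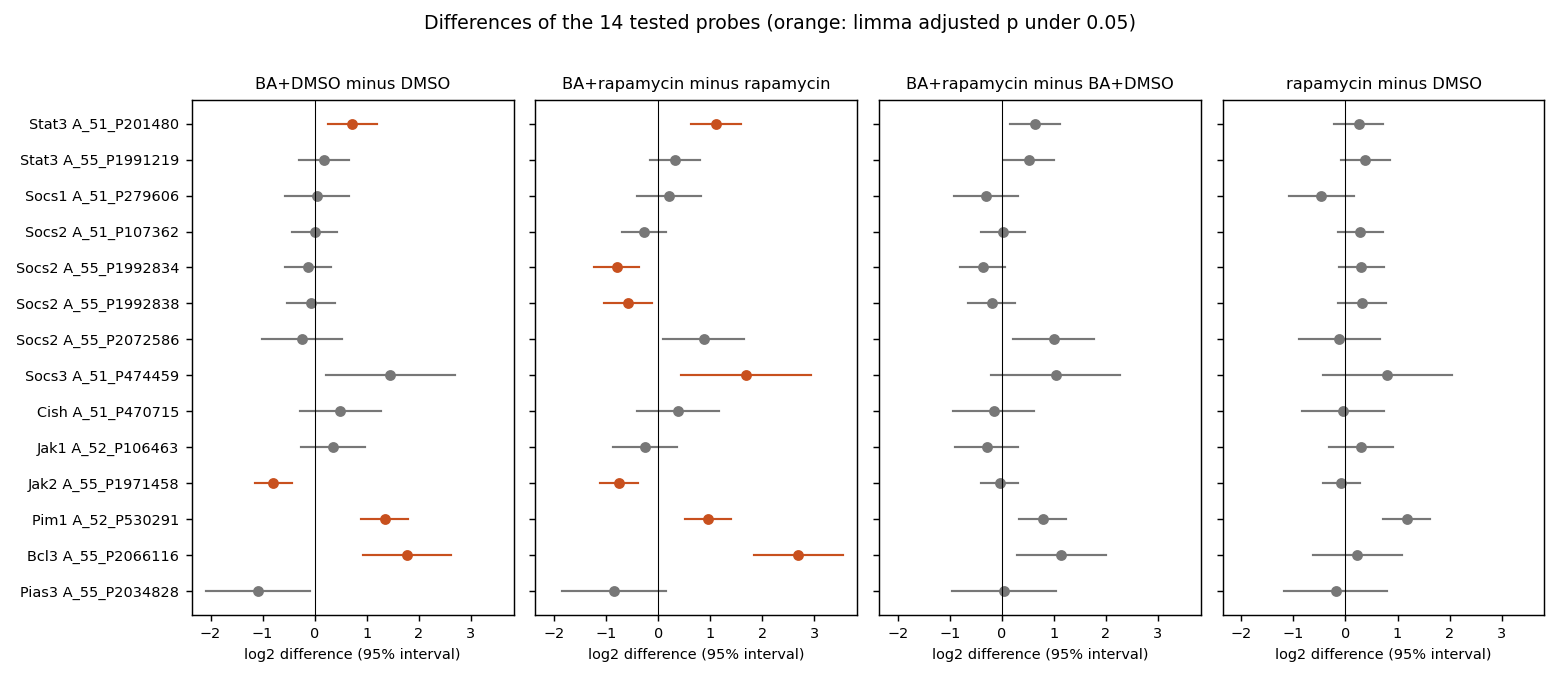
Log2 differences of the 14 tested member probes with their 95% intervals, for the challenge in vehicle-treated and rapamycin-treated mice and for rapamycin with and without the challenge. Orange marks called probes, which are 4 and 7 of 14 for the challenge and none for rapamycin.

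Without BA+DMSO replicate 2, 4 member probes were called between BA+rapamycin and BA+DMSO, Stat3, Jak1, Pim1 and the distant Socs2 probe, but 39.9% of all tested probes were then called as well. No member was called in the comparison of rapamycin with DMSO without any single array. Among the BA+rapamycin and BA+DMSO arrays, 1 of each share a date in their titles, whose meaning is not given. Between that pair the difference was 0.77 for Stat3 on A_51_P201480, 0.65 for Pim1, -0.013 for Bcl3 and -0.74 for Socs3, with no test for 1 array each.

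Groups of arrays that did not overlap were counted beside the calls. They separated for 6 of 14 member probes with the challenge in vehicle-treated mice, against 34.6% of all tested probes, and for 11 of 14 in rapamycin-treated mice, against 65.9%. Both counts include Pias3, whose separation is no result, because its probe passed the filter only through the unchallenged groups. For rapamycin they separated for 3 of 14 under challenge and 4 of 14 without it, against 14.5% and 21.5%.

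Other genes of the pathway were followed in 5 lists, upstream cytokines, receptor subunits, other Jak and Stat genes, other inhibitors and adaptors, and other textbook Stat3 targets, with 1 probe per gene. Of the 12 cytokines, 5 passed the filter. Il6 and Lif passed only through BA+rapamycin, where they were high, so they had to differ there and are described without a count or a median over the list. Of the other 3, Il11 and Clcf1 rose and Ctf1 fell with the challenge, in vehicle-treated and in rapamycin-treated mice. Of all tested probes, 9.65% were called higher and 10.8% lower in vehicle-treated mice, 20.5% in all, and 18.9% and 22.9% in rapamycin-treated mice, 41.7% in all.

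Interleukin 6, the first ligand of the Stat3 pathway, was not well above background on any DMSO or rapamycin array. In BA+DMSO its probe stood at 2.84, -3.83 and -0.12, with replicate 2 not above background, and in BA+rapamycin at 2.84, 3.11 and 1.91. BA+DMSO replicate 2 was thus the 1 challenged array without measurable Il6. The level was at least 104-fold higher with the challenge in rapamycin-treated mice. It is given as a description with no test, since the filter kept Il6 for its BA+rapamycin level. Such bounds set the mean of the brighter group against the lowest signal well above background on each dim array, or the probe's own signal where that was higher. The bound in vehicle-treated mice was 4.25-fold without BA+DMSO replicate 1 and 43.0-fold without replicate 2.

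Il11, a second ligand that signals through the shared receptor subunit gp130, stood at -2.39, -3.23 and -3.30 in DMSO, at -2.92, -2.46 and -2.82 in rapamycin, at -0.59, -1.58 and -1.34 in BA+DMSO and at 1.60, 2.74 and 1.1 in BA+rapamycin. The BA+rapamycin arrays lay above all others. Il11 rose by 1.81 with the challenge in vehicle-treated mice (limma adjusted p = 0.0133) and by 4.55 in rapamycin-treated mice (limma adjusted p = 0.000108). It was also higher in BA+rapamycin than in BA+DMSO, by 2.98 (limma adjusted p = 0.0196), which is named here after its value was seen. The call in vehicle-treated mice was lost without DMSO replicate 2 or 3 or BA+DMSO replicate 1 (adjusted p 0.0525 to 0.0616), and that between the challenged groups without BA+DMSO replicate 3 (2.90, adjusted p = 0.0660).

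Lif, which uses the receptor subunits Lifr and gp130, was not well above background in DMSO or rapamycin and stood at -1.80, -0.88 and -4.91 in BA+DMSO, the last not above background, and at -1.80, -0.63 and -1.07 in BA+rapamycin. BA+DMSO overlapped with DMSO through replicate 3. Also as a description with no test, Lif was at least 7.53-fold higher with the challenge in rapamycin-treated mice. The same estimate was 2.90-fold in vehicle-treated mice, which is no strict bound, since BA+DMSO replicate 3 entered the mean. That estimate was 1.64-fold without BA+DMSO replicate 2 and 6.61-fold without replicate 3.

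The 2 other tested cytokines, named after their values were seen, were Clcf1 and Ctf1, both ligands of gp130. Clcf1 rose by 0.80 (limma adjusted p = 0.0355) in vehicle-treated and by 1.5 (limma adjusted p = 0.00131) in rapamycin-treated mice. Ctf1 fell by 0.63 (limma adjusted p = 0.0380) and by 1.2 (limma adjusted p = 0.00138), and was lower by 1.09 in BA+rapamycin than in BA+DMSO (limma adjusted p = 0.0491). In vehicle-treated mice both calls were lost without any one of 4 arrays, for Clcf1 DMSO replicates 2 and 3 and BA+DMSO replicates 1 and 3 (adjusted p 0.0530 to 0.129) and for Ctf1 all DMSO replicates and BA+DMSO replicate 1 (adjusted p 0.0783 to 0.118). The Ctf1 call between the challenged groups was lost without any one of BA+rapamycin replicates 1, 2 and 3 and BA+DMSO replicates 1 and 3 (-1.17 to -0.93, adjusted p 0.0564 to 0.114).

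**Figure D3:**
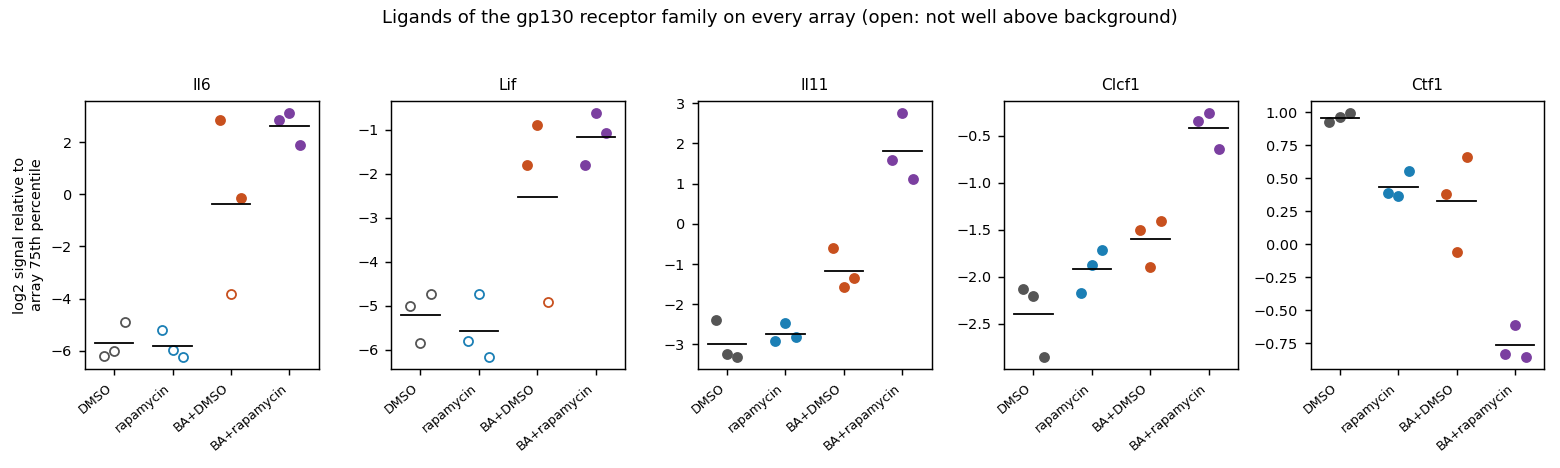
Levels of the tested cytokine genes on each array, as log2 intensity relative to the array's 75th percentile, by group. Lines are group means, and open points are arrays on which the probe was not well above background. Il6 and Lif are open in all unchallenged arrays, and the BA+rapamycin arrays hold the highest Il11 values, at 1.1 to 2.74.

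Of 16 receptor subunits, 15 were tested, all but Prlr. With the challenge 6 rose and none fell in vehicle-treated mice, with a median difference of 0.39, and 7 rose and 3 fell in rapamycin-treated mice, with a median of 0.72, against 20.5% and 41.7% of all tested probes called. Csf2rb, the shared chain of the receptors for Csf2 and interleukins 3 and 5, rose by 2.37 (limma adjusted p = 0.000899) and by 2.71 (limma adjusted p = 0.000276). Il4ra, the chain for interleukins 4 and 13, rose by 2.15 (limma adjusted p = 0.00913) and by 2.93 (limma adjusted p = 0.00123), the former being 1.48 without BA+DMSO replicate 1. Osmr, the oncostatin M receptor, rose by 1.18 (limma adjusted p = 0.00240) and by 1.16 (limma adjusted p = 0.00160).

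Il6ra, the receptor of interleukin 6, rose by 1.08 in vehicle-treated mice (limma adjusted p = 0.0424) and by 1.30 in rapamycin-treated mice (limma adjusted p = 0.0118). The first call was lost without any one of DMSO replicates 1, 2 and 3 and BA+DMSO replicates 1 and 2 (0.76 to 1.18, adjusted p 0.0761 to 0.130), and the second without rapamycin replicate 3 (1.14, adjusted p = 0.0526). The 3 subunits that fell in rapamycin-treated mice were Il6st, Lifr and Il11ra1. Il6st, which encodes gp130, stood at 4.67, 4.68 and 4.65 in rapamycin and at 4.10, 3.69 and 3.84 in BA+rapamycin, and fell by 0.80 (limma adjusted p = 0.0126). Lifr fell by 1.08 (limma adjusted p = 0.00223). Il11ra1 fell by 0.42 (limma adjusted p = 0.0460), a call lost without any one of the 6 arrays of the rapamycin and BA+rapamycin groups (-0.50 to -0.35, adjusted p 0.0512 to 0.149). Lepr, the leptin receptor, rose by 1.83 in rapamycin-treated mice (limma adjusted p = 0.00248). It also rose in vehicle-treated mice, from a mean of 1.82 to 3.17. That second call was lost without DMSO replicate 1 or 2 (limma adjusted p 0.0524 to 0.0677). Il10ra, the interleukin 10 receptor of leukocytes, rose by 1.38 in vehicle-treated mice (limma adjusted p = 0.00760). It also rose in rapamycin-treated mice, from a mean of -0.67 to 0.68, a call kept with any single array left out.

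Among the other Jak and Stat genes 6 of 8 were tested. With the challenge 1 rose and 1 fell in vehicle-treated mice (median -0.19), and 2 rose and 2 fell in rapamycin-treated mice (median -0.034), against 20.5% and 41.7% of all tested probes called. Jak3, the Jak kinase of blood cells, rose by 1.26 (limma adjusted p = 0.0211) and by 1.38 (limma adjusted p = 0.00799). Its call in vehicle-treated mice was lost without DMSO replicate 1 or 2 or BA+DMSO replicate 1 (adjusted p 0.0709 to 0.0776). Stat5b, a Stat factor of growth hormone signalling, fell by 0.81 (limma adjusted p = 0.00483) and by 0.62 (limma adjusted p = 0.00906). Stat2, which acts in the interferon response, rose by 1.00 in rapamycin-treated mice (limma adjusted p = 0.00535).

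All 13 other inhibitors and adaptors were tested. Socs6 passed the filter only through the unchallenged groups and is left out of the counts. Of the other 12, 1 rose and 3 fell in vehicle-treated mice (median -0.19), and 1 rose and 4 fell in rapamycin-treated mice (median -0.35). Of all tested probes, 20.5% and 41.7% were called. The 1 that rose in each was Ptpn6, the phosphatase SHP-1 of blood cells, by 2.44 (limma adjusted p = 0.000508) and by 1.89 (limma adjusted p = 0.00102). Pias1, a SUMO ligase that restrains Stat factors, fell by 0.97 (limma adjusted p = 0.00562) and by 1.2 (limma adjusted p = 0.00118). Socs7 fell by 0.86 in vehicle-treated mice (limma adjusted p = 0.00369). It also fell in rapamycin-treated mice, from a mean of 2.91 to 2.42. That second call was lost in 5 of 6 fits with 1 array left out (-0.50 to -0.45, limma adjusted p 0.0620 to 0.0864). Ptpn2, a phosphatase for Jak and Stat proteins, fell by 1.08 in rapamycin-treated mice (limma adjusted p = 0.00903).

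Of 18 other textbook Stat3 targets, 17 were tested, all but Fgg. Saa3 passed the filter only through the challenged groups and is left out of the counts. Of the other 16, 6 rose and none fell in vehicle-treated mice (median 1.09), and 7 rose and 1 fell in rapamycin-treated mice (median 0.62), beside 20.5% and 41.7% of all tested probes called in either direction. Timp1, an inhibitor of matrix metalloproteinases, stood at 3.11, 2.61 and 2.50 in DMSO, at 2.88, 3.20 and 3.49 in rapamycin, at 7.47, 5.95 and 6.94 in BA+DMSO and at 7.82, 7.79 and 7.60 in BA+rapamycin. Every challenged array lay above every unchallenged one, and Timp1 rose by 4.05 (limma adjusted p = 0.000117) and by 4.55 (limma adjusted p = 6.31e-05).

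Birc5, the survivin gene of dividing cells, rose by 4.33 (limma adjusted p = 0.000334) in vehicle-treated and by 4.04 (limma adjusted p = 0.000243) in rapamycin-treated mice, the former being 4.995 without BA+DMSO replicate 2. The acute phase gene Saa3 was well above background on no DMSO array and on 2 of 3 rapamycin arrays. As a description with no test, it was at least 8.12-fold higher with the challenge in vehicle-treated mice, and the difference in rapamycin-treated mice was 5.09, or 4.41 without rapamycin replicate 1. Several of these targets are also driven by NF-κB or by the cell cycle. In none of the lists of receptors, Jak and Stat genes, inhibitors and targets was a gene called for rapamycin, with or without the challenge, or for the interaction.

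**Figure D4:**
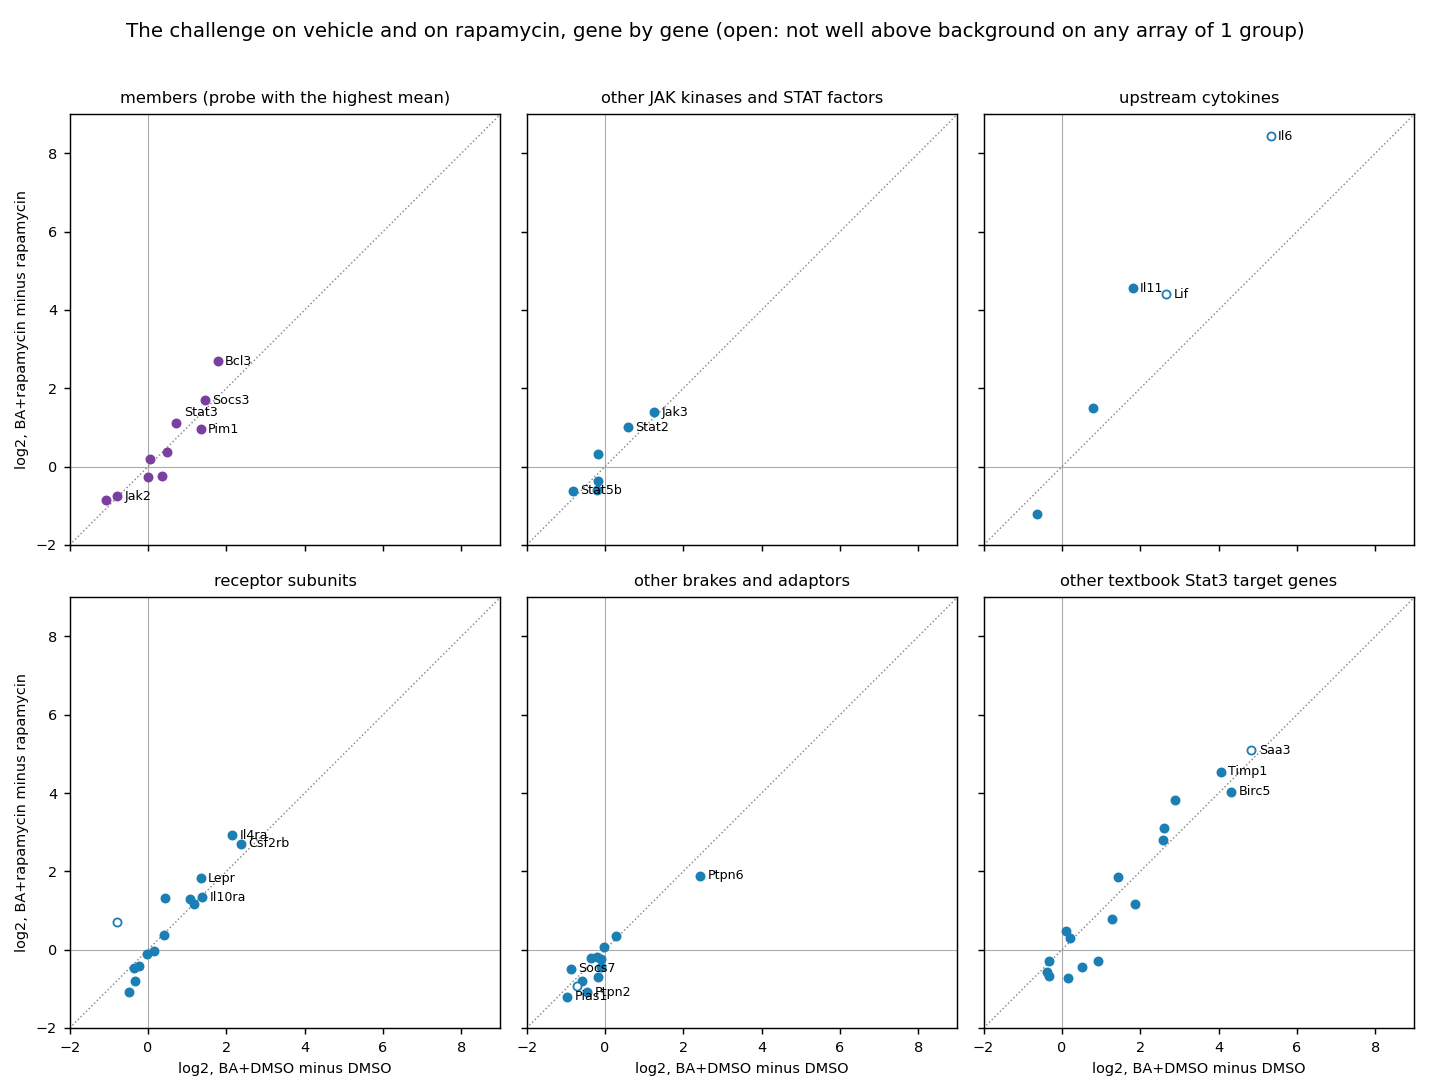
Each point is 1 tested gene of the members or pathway lists, with its log2 difference for the challenge in vehicle-treated mice on the horizontal axis and in rapamycin-treated mice on the vertical axis. The panels are the members and the 5 lists, and the dotted line marks equal differences. Open points are genes not well above background on any array of 1 group. Timp1 and Birc5 lie above 4 on both axes, and Jak2 lies below 0 on both.

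Some markers of other cells moved with the challenge. Of 8 macrophage and leukocyte markers 7 rose in vehicle-treated mice (median 2.05) and 7 in rapamycin-treated mice (median 1.53). In the same comparisons 20.5% and 41.7% of all tested probes were called in either direction. Their summed level, in multiples of the array's 75th percentile, was 109 to 140 in DMSO and 117 to 142 in rapamycin. With the challenge it was 181 to 489 under vehicle and 373 to 499 under rapamycin. The sum of the 8 smooth muscle markers was 2858 to 3080, 2598 to 3060, 2460 to 4837 and 3484 to 4522 in the same order. Of these 8, none rose and 1 fell in vehicle-treated mice (median -0.58), and 1 rose and 3 fell in rapamycin-treated mice (median -0.35). Of 3 tested neutrophil markers, 1 rose in vehicle-treated and none in rapamycin-treated mice (medians 1.74 and 0.25). Of 3 adipocyte markers, leaving out Ucp1, which passed the filter only through a challenged group, none was called (medians 1.80 and 1.73). Of 5 endothelial markers, 2 rose in vehicle-treated mice, and 1 rose and 1 fell in rapamycin-treated mice (medians 0.58 and 0.32). In either comparison 1 rose of 4 fibroblast markers (medians 0.54 and -0.0077). Of the T and B cell markers only Cd3e passed the filter in challenged and unchallenged groups, and it rose in both comparisons (0.92 and 1.36). The part of these cells in the rises of Bcl3, Pim1, Stat3, Socs3, Jak3, Csf2rb and Ptpn6 was not tested, and in whole aorta more cells of a type cannot be told apart from more RNA per cell, nor fewer cells from less RNA.

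Probes most like Stat3 and Socs3 over the 12 arrays were found by the root mean square difference after each probe was centred on its own mean. For Stat3 on A_51_P201480, whose SD over the arrays was 0.58, Sp100, a gene of nuclear bodies, lay at 0.13 and Snx9, which encodes a sorting nexin of endocytosis, at 0.14. The group means of Sp100 were -2.89 (DMSO), -2.58 (rapamycin), -2.04 (BA+DMSO) and -1.43 (BA+rapamycin). For Socs3, with an SD of 1.17, the nearest were the immediate early gene Egr2 at 0.25, March3 at 0.30 and Myc at 0.32. The group means of Egr2 were -1.85, -1.03, -0.56 and 0.83, with an SD of 1.15 in BA+DMSO.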

How the data were processed

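RNA of 12 aortas was labelled with Cy3 and hybridised by the authors to 1-colour Agilent arrays, 1 aorta per array, on 2 slides. Per the file headers, the scanner software was Feature Extraction in version 10.7.1.1 (the labels name 9.5.1.1), and mm9 is the build of the probe positions. The deposited processed signal is a background-subtracted, linear intensity without between-array normalization, deposited beside each spot's raw mean and background intensity. Per the file headers, flags of 0 or 1 mark spots that are well above background, saturated or outlying. The deposited value table holds linear intensity whose normalization is not given in the sources used here. Set against quantile-normalized processed signal, its columns correlated at 0.9996 or more.

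Outlying spots were left out, processed signals were converted to log2, spots of a probe were averaged and each array's 75th percentile was subtracted. Of 55681 probes, 6 had missing values and were dropped. A spot-level detection share of 0.5 or more, on every array of a group of 3, in 1 group or more, was needed for testing, and 27801 probes met it. No spot was saturated. The number of arrays limits the precision. A single limma 3.58.1 model (R 4.3.3, with data.table in version 1.17.8) held the 4 group means over all arrays, with 3.02 prior degrees of freedom. Tests were two-sided, with Benjamini-Hochberg adjustment over the tested probes of each contrast. The code was tested on simulated data. Samples were grouped by treatment label, and replicate numbers follow the order of deposition.

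Genes named from the other lists are the 3 called genes with the largest difference in each list and challenge comparison. Clcf1, Ctf1, Osmr, Il6ra, Il6st, Lifr and Il11ra1 were named after their values were seen. The members and lists were chosen with earlier results of these data known. The alternatives tried were other scaling, background correction and filters, the value table, slide and brightness terms, other variance settings, fewer samples, averaged probes and each array left out. Gene-by-gene array weights were added after seeing the data, since the planned array weights did not converge and were not run. Some items that met these rules are not reported here.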

Additional observations from a re-analysis of the deposited data

How the results depend on the processing

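The 11 calls of member probes were tried under 218 alternatives, of which 172 kept the call, 46 lost it and none turned the direction. The 59 member results not called gained a call in 30 of 1224 alternatives, and 1 alternative turned the direction. The sign of their difference changed in 79 alternatives. Against 4 challenge calls in vehicle-treated mice, the model with only those 2 groups gave 1 (4.47% of all probes called), gene-by-gene array weights, chosen after seeing the data, gave 8 (46.1%), and slide as a fixed block gave 0 (0.054%). Slide as a fixed block rests this contrast on rapamycin replicate 1 and its group, and slide as a random block kept all 4 and added Socs3 and Pias3. Any challenge call of Pias3 in these counts is no result, as its probe passed the filter only through the unchallenged groups. Leaving out 1 array gave 3 to 5. For rapamycin under challenge, in place of 0 calls, the weights gave 3 (25.5%) and leaving out 1 array gave 0 to 4. Without BA+DMSO replicate 1 there was 1 call, Bcl3 (0.806%), and without BA+DMSO replicate 2 there were 4 (39.9%). For rapamycin alone the weights gave 1 (1.92%), Pim1 (adjusted p = 0.00688). Against 7 challenge calls in rapamycin-treated mice, normexp gave 11 (62.4% of all probes), the second slide alone 2 (11.8%) and the brightness covariate 0 (6.94%). For the interaction the weights gave 2 (3.34%), and leaving out 1 array 0 to 2 (11% without BA+DMSO replicate 2). With brightness as a covariate, the challenge calls of Jak2 (-0.70, limma adjusted p = 0.0239) and Pim1 (1.18, limma adjusted p = 0.00941) held in vehicle-treated mice. Those of Stat3 and Bcl3 did not. Brightness is partly collinear with the challenge, and its part in these differences was not tested.

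Of 60 results of listed genes under 1166 alternatives, 970 kept the call, 193 lost it and 3 turned the direction. For the challenge in rapamycin-treated mice, normexp gave 0.40 for Pias3 and 0.35 for Socs6. The brightness covariate gave 1.05 for Pias3, -0.14 for Il6ra and -0.41 for Csf3r. The cause was not tested. With the 75th percentile taken over detected probes, scaling moved the median of all probes by 0.18 in that comparison and by 0.14 for rapamycin under challenge, and normexp by 0.22 and, in vehicle-treated mice, by 0.14. No paired analysis was possible because the replicate numbers follow the order of deposition and pair no arrays. Dates in some titles, whose meaning is not given, were used only to compare arrays of the same date, and no block by date was fitted. With 3 arrays per group, probes that varied, such as those of Pias3 and Socs3, leave wide intervals. Their SEs for the challenge in vehicle-treated mice were 0.45 and 0.56. A missed call, there or on the second Stat3 probe, does not show that levels were alike.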
